A study of Nannospalax ehrenbergi and Mus musculus with 14 samples.

Results

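The proximal microRNA cluster of the imprinted Dlk1-Dio3 domain, from miR-770 to miR-370, was followed in 14 small RNA libraries from chemically treated *Spalax*, a blind mole rat, and mice. Members were taken by name, as every row of the deposited tables named for a microRNA of this stretch. This gave 30 arms of 15 hairpins, of 1326 microRNA names in each table. The cluster was chosen on its changes at the injected side in these same libraries, so those changes describe the members and stand with no p-value of their own. A microRNA hairpin has a 5p and a 3p arm, and each arm is a row. No row was named miR-3544, miR-432, miR-3071, miR-882, miR-3070a or miR-3070b, and a row named miR-3070-2-3p, which did not match the names listed, was not counted. Of the 30 members, 25 had a read in at least 1 *Spalax* library and 30 in at least 1 mouse library.

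All animals had received the carcinogen 3-methylcholanthrene (3MCA) as a single injection, 200 µg in 200 µl for the mice and 1000 µg in 500 µl for *Spalax*. RNA came from the injected side (IS), where a growth had formed, and from the uninjected side (UIS), neck muscle of the same animal. None of the 14 libraries came from an untreated animal, so every UIS library is muscle of an animal with a growth. *Spalax* Sp600 and Sp976, females, bore benign granulomas removed 14 and 16 months after the injection. *Spalax* Sp2240, a female, and Sp2230, a male, bore fibrosarcomas, malignant tumors of connective tissue, removed after 18 and 30 months. Mice M512, M1023 and M1019, males aged 3 to 4 months in the design, bore fibrosarcomas removed after 11, 12 and 14 weeks. The *Spalax* were about 2 years or at least 10 years old in the design, and which animal had which age is not given in the sources used here. Time and the kind of growth changed together between the *Spalax* conditions and cannot be told apart. Sex differed in part, since the sole male bore a fibrosarcoma. The mouse UIS library whose table column carries a number other than its label was used as an unnumbered, unpaired UIS replicate. A condition thus had 2 libraries in *Spalax* and 3 in mice.

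The Dlk1-Dio3 domain is imprinted: its protein-coding genes, among them Dlk1 and Rtl1, are expressed from the paternal copy, and its noncoding RNAs Meg3, antisense Rtl1, Rian and Mirg from the maternal copy. The microRNAs are cut from these maternal transcripts. The miR-127 group is read from the strand opposite to Rtl1, a retrotransposon-derived gene, and its members can direct cleavage of the perfectly complementary Rtl1 messenger. The domain is known for its activity in the embryo, placenta, muscle and brain and for low expression in many adult tissues.

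In GENCODE M21 on GRCm38, the 15 hairpin numbers correspond to 16 mouse microRNA genes, all on the plus strand of chromosome 12, from 109563692 to 109618336, a span of 54645 bases. In this gene order, miR-770 lies in an exon of Meg3. The hairpins of miR-673, miR-493, miR-337, miR-540, miR-665 and miR-3070 follow downstream and overlap no annotated host gene. Those of miR-431, miR-433, miR-127, miR-434 and miR-136 lie opposite the Rtl1 coding exon, and those of miR-341, miR-1188 and miR-370 in introns of Rian. These groups are called the Meg3 end, the Rtl1 antisense group and the Rian group, with 14, 10 and 6 members. The mouse hairpins whose values carry the results are shown as annotated, 5′ to 3′, with the terminal loop that RNAfold predicts in capitals, so that the 5p arm lies before the capitals and the 3p arm after them. Both species were counted under mouse microRNA names, and which reference sequences the counting used is not given in the sources used here. miR-127 held most reads of the cluster and miR-370 spread widest between conditions. In counted reads, miR-136 and miR-337 differed in arms between sides or species, and miR-434 and miR-493 in level or arms between the species:
miR-337: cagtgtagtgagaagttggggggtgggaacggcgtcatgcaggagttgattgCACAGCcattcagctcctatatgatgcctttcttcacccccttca
miR-493: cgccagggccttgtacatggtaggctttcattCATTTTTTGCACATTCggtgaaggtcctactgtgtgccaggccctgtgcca
miR-127: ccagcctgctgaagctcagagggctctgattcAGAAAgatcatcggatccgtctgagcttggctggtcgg
miR-434: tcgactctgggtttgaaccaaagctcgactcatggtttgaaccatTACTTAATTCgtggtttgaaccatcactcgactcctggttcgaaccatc
miR-136: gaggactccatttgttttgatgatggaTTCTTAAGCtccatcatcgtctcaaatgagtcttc
miR-370: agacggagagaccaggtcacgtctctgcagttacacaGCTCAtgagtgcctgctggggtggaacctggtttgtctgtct

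The miR-127 hairpin, 70 bases at chr12:109592846-109592915, is the exact reverse complement of bases 2636 to 2705 of the 6358-base Rtl1 transcript. The miR-434 hairpin, at chr12:109594506-109594599, pairs in the same way with bases 952 to 1045, and that of miR-136, at chr12:109595327-109595388, with bases 163 to 224. The miR-136 hairpin lies wholly within the hairpin annotated for miR-3071 on the other strand, and that of miR-337, at chr12:109585789-109585885, overlaps that of miR-3544 on the other strand. Neither of these opposite-strand microRNAs had a row. The miR-493 hairpin is at chr12:109580233-109580315 and that of miR-370 at chr12:109618258-109618336.

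The libraries held 2034574 to 13982842 microRNA reads. Of these reads, the 6 muscle marker microRNAs took 35.2% to 37.3% in the *Spalax* UIS libraries and 27.6% to 29.7% in the mouse UIS libraries. At the IS, which the labels also call muscle tissue, they took 0.00953% to 0.165% in *Spalax* and 0.0100% to 3.92% in mice, with all 6 still detected in every condition. The 5 fibroblast and mesenchyme markers took 2.15% to 3.29% of the reads at the *Spalax* UIS, 12.4% to 13.2% in granulomas, 4.19% to 7.57% in *Spalax* fibrosarcomas and 7.21% to 11.6% in mouse fibrosarcomas. The 5 leukocyte markers took at most 0.112% at any UIS, 0.788% to 0.877% in granulomas, 0.939% to 2.39% in *Spalax* fibrosarcomas and 0.341% to 1.77% in mouse fibrosarcomas. The 3 red cell markers took 1.46% to 2.66% at the *Spalax* UIS and 0.263% to 1.25% at the IS, and 7.17% to 18.0% and 0.584% to 3.31% in mice. The 5 epithelial markers took at most 0.0197% of any library. No marker of these lists was at 0 in any condition. These shares moved with the side, and their part in the members' changes was not tested. In such bulk samples, fewer cells of a type and less RNA per cell cannot be told apart.

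As a share of all microRNA reads, which uses no size factor, the cluster was scarce in muscle and common in granulomas and mouse tumors. In granuloma-bearing *Spalax* the 30 members together took 0.0704% (Sp600) and 0.0920% (Sp976) of the UIS reads, and 2.04% (Sp600) and 0.873% (Sp976) of the IS reads. The share was 29.0 times as high at the IS in animal Sp600 and 9.49 times in animal Sp976, or 18.2 and 6.14 times with the muscle microRNAs left out of the total. In *Spalax* with fibrosarcomas it was 0.0439% (Sp2230) and 0.0620% (Sp2240) at the UIS, against 0.0271% (Sp2230) and 0.0764% (Sp2240) at the IS. One animal thus had the lower share at the IS, 0.618 times that of its UIS, and the other the higher, 1.23 times. In mice the share was 0.249% (unnumbered), 0.138% (M1023) and 0.0715% (M512) at the UIS, against 3.74% (M1019), 7.05% (M1023) and 1.82% (M512) at the IS. Every mouse tumor lay above every mouse UIS library, 51.2 times the UIS of the same animal in mouse M1023 and 25.4 times in mouse M512. With the muscle microRNAs left out, mouse tumors had 37.5 times (M1023) and 19.1 times (M512) the share of their UIS. Under the same total, the IS share in the fibrosarcoma-bearing *Spalax* was 0.400 times (Sp2230) and 0.782 times (Sp2240) that of the UIS, so both animals then had the lower share at the IS. The 95% Wilson interval of each share, which covers counting error only, was far narrower than the gap between libraries of a condition, for example 2.03% to 2.06% for granuloma Sp600 and 0.863% to 0.882% for granuloma Sp976.

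**Figure D1:**
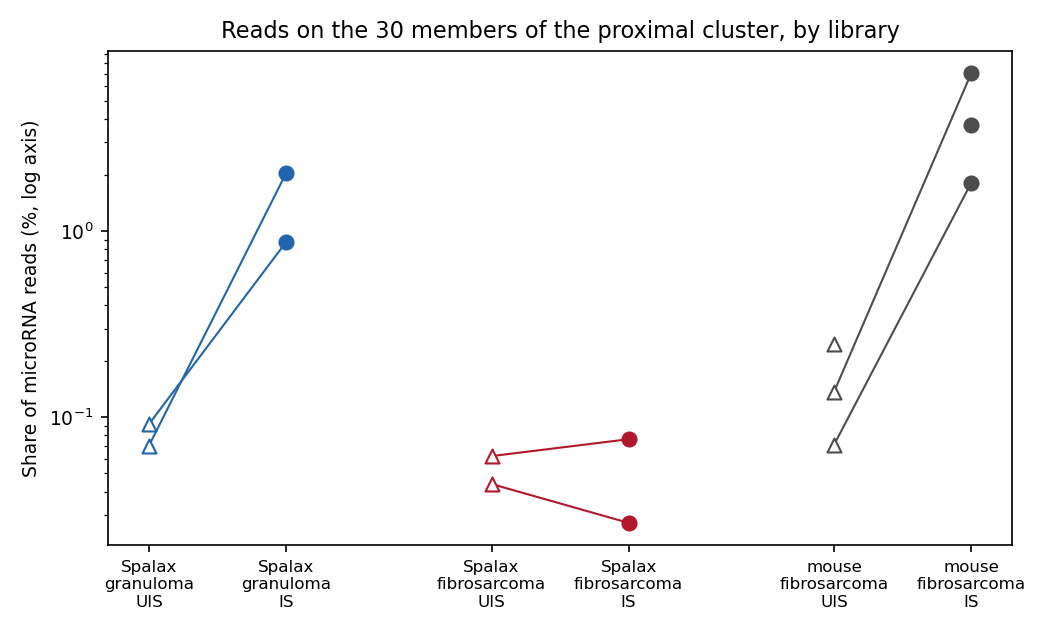
Share of all microRNA reads on the 30 members in each of the 14 libraries (vertical log axis, percent), for the uninjected side (open triangles) and the injected side (filled circles), with lines joining the sides of an animal. Granulomas reach 0.873% and 2.04% and mouse tumors 1.82% to 7.05%, while the *Spalax* fibrosarcomas, at 0.0271% and 0.0764%, stay near their uninjected sides.

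In granulomas, most members stood higher than in the muscle, with calls mainly in the Rtl1 antisense and Rian groups. miR-434-3p had a lower mean, and miR-673-5p was higher in Sp600 and lower in Sp976. Of the 18 members that passed the filter on low values in *Spalax* (a normalized count, reads divided by a library's size factor, of at least 10 in at least 2 libraries), 11 were called higher at the IS and 0 lower, beside 25.5% of all 447 microRNAs called higher. A call is an adjusted p under 0.05 in limma. Of the 11, miR-341-5p and miR-370-5p (Rian group) and miR-431-3p and miR-433-5p (Rtl1 antisense group) reached 10 in the granuloma IS libraries alone. These arms passed the filter only through the group where they stood high, so their calls are not independent of it. The median log2 fold change of the 18 was 2.45, against 0.13 over all 447, and 17 of the 18 were above 0. Calls were made for 6 of 9 tested arms of the Rtl1 antisense group, all 4 of the Rian group and 1 of 5 at the Meg3 end. The share at the Meg3 end was not above the 25.5% of all microRNAs. Without the IS library of Sp600, the UIS library of Sp600 or that of Sp976, most of the calls were lost. Fewer of all 447 microRNAs were then called higher as well. Each of these fits leaves 1 library on a side. The members' median log2 fold change was 1.78, 2.08 and 2.82, in the same order, against 0.08, 0.09 and 0.16 over all 447. The fold changes are on the log2(normalized count + 1) scale, which understates the change of arms with few reads.

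In *Spalax* fibrosarcomas the 18 members tested had log2 fold changes below 0 on the deposited scale, and 8 of them turned above 0 when reads were scaled to the library totals. Calls were made for 4, all lower at the IS, beside 22.1% of the 447 microRNAs called lower. They were miR-127-3p, miR-370-3p, miR-433-3p and miR-673-3p. Of these, miR-370-3p, miR-433-3p and miR-673-3p had 5 reads or fewer in each fibrosarcoma, near the lower limit of 3 reads. The median log2 fold change of the 18 was -1.34, against -0.23 over all 447, and 0 were above 0. The arms miR-337-5p, miR-341-5p, miR-370-5p and miR-433-5p had 3 reads or fewer in every library of both sides and give no fold; without these 4, and with miR-431-3p at the bound that 3 reads set, the median was -1.52. The calls rest on the scaling: with reads scaled to the library totals, which moved the median of all microRNAs from -0.23 to 1.40, 0 members were called and the members' median was -0.22, while 9.17% of the 447 were called lower. The same scaling left the granuloma members high, with 17 called higher beside 56.6% of the 447. Without the UIS library of Sp2230, that of Sp2240 or the IS library of Sp2230, most or all of the 4 fibrosarcoma calls were lost. Fewer of all 447 microRNAs were then called lower as well. The members' median was -1.89, -1.55 and -0.85, in the same order, against -0.24, -0.27 and -0.13 over all 447. Calls were also lost without the UIS library of Sp600 or that of Sp976, which share the estimate of the spread. The difference between the changes of the *Spalax* conditions, a contrast of the same fit, was called for 2 of the 18 members, miR-127-3p and miR-370-3p, beside 3.8% of the 447 microRNAs. It was called for 0 to 12 members under the alternatives. With a library left out, which leaves 1 library on a side of a condition, the calls were lost in most fits. The members' median difference then ran from 3.31 to 4.70, against 3.98 in the main fit. The 12 came with DESeq2, which called 61 of the 447 microRNAs.

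In mouse fibrosarcomas nearly the whole cluster stood above the muscle. Of the 22 members tested, 20 were called higher at the IS and 0 lower, beside 32.2% of all 547 microRNAs tested in mice. The arms without a call, miR-337-5p and miR-540-5p, had log2 fold changes of 2.00 ± 0.89 (SE) and 1.50 ± 0.70 (SE). The median of the 22 was 3.00, against 0.21 over all 547, and 2.84 with miR-370-5p and miR-433-5p at the bounds that 3 reads set. With scaling to the totals all 22 were called higher, beside 68.2% of the 547. Both *Spalax* comparisons share a fit, and the mouse libraries were fitted separately on a table of their own.

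**Figure D2:**
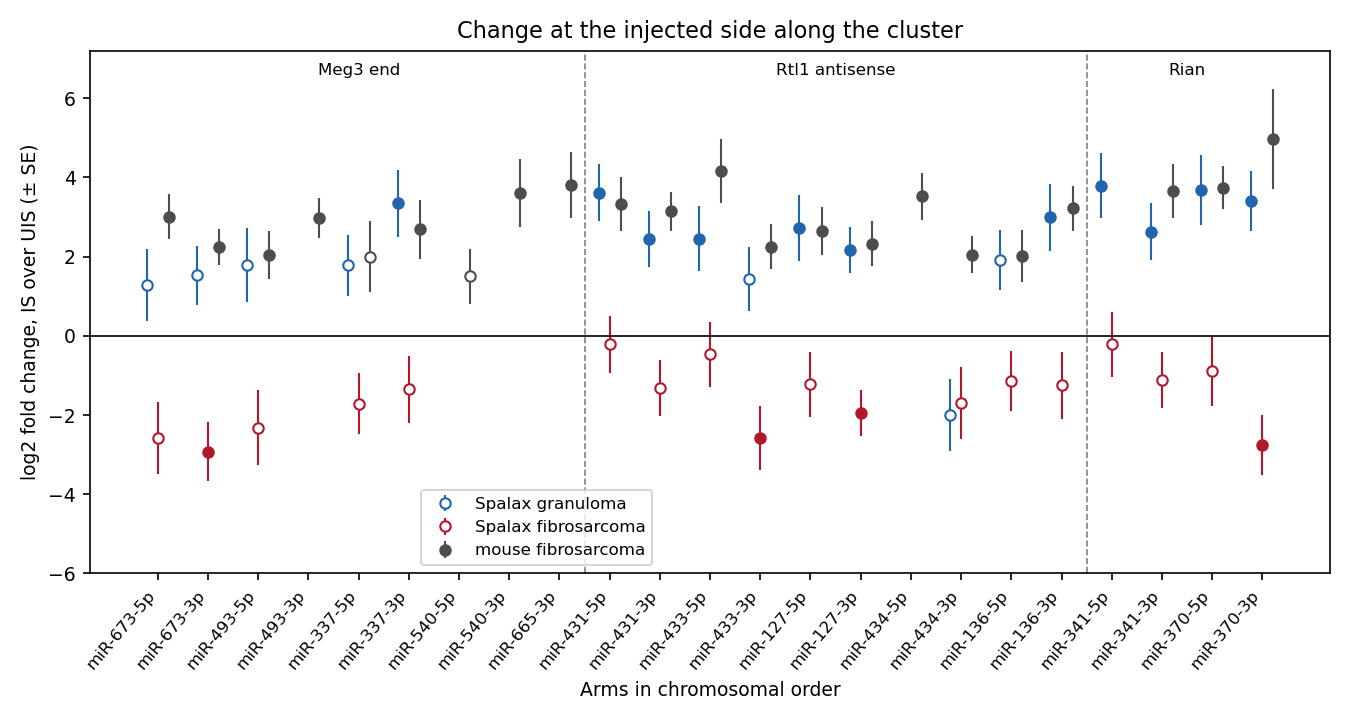
Log2 fold change of the injected over the uninjected side (vertical axis, ± SE) for every arm tested in either species, in chromosomal order. Filled points have an adjusted p under 0.05 in limma. The granuloma (blue) and mouse (grey) points lie above 0, apart from miR-434-3p in granulomas, and the *Spalax* fibrosarcoma (red) points lie below it; with scaling to the library totals, 8 of the 18 red points would lie above 0.

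Within the Rtl1 antisense group, miR-127-3p was the main product of the cluster and took 75.0% to 89.0% of the members' reads in each library. Its normalized counts in granuloma-bearing *Spalax* were 10264 (Sp600) and 12304 (Sp976) at the UIS and 75285 (Sp600) and 33693 (Sp976) at the IS. In fibrosarcoma-bearing *Spalax* they were 5460 (Sp2230) and 7559 (Sp2240) at the UIS and 995 (Sp2230) and 2801 (Sp2240) at the IS. The sides did not overlap in either condition, but they lay in opposite order, with log2 fold changes of 2.16 ± 0.59 (SE) in granulomas and -1.94 ± 0.59 (SE) in *Spalax* fibrosarcomas. In mice the counts of miR-127-3p were 32182 (unnumbered), 20820 (M1023) and 14693 (M512) at the UIS and 105812 (M1019), 225494 (M1023) and 52367 (M512) at the IS, a log2 fold change of 2.33 ± 0.57 (SE) with every tumor above every UIS library.

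In the same group, miR-136-3p was called higher in granulomas and in mice. It stood at 291 (Sp600) and 465 (Sp976) normalized counts at the granuloma UIS and at 5348 (Sp600) and 1604 (Sp976) at the IS, a log2 fold change of 2.99 ± 0.85 (SE). In *Spalax* fibrosarcomas its levels overlapped between the sides, with 117 (Sp2230) and 359 (Sp2240) at the UIS and 47.9 (Sp2230) and 152 (Sp2240) at the IS. Each animal had the lower value at the IS, but the log2 fold change of -1.25 ± 0.85 (SE) was not called and turned to 0.42 with scaling to the totals. In mice miR-136-3p had 521 (unnumbered), 398 (M1023) and 346 (M512) normalized counts at the UIS and 3124 (M1019), 9127 (M1023) and 2036 (M512) at the IS, a log2 fold change of 3.22 ± 0.58 (SE).

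The arms of miR-431 and miR-433 are rarer. In granuloma-bearing animals miR-431-5p had 31.2 (Sp600) and 41.9 (Sp976) normalized counts at the UIS and 509 (Sp600) and 405 (Sp976) at the IS, and its log2 fold change was 3.61 ± 0.72 (SE). In *Spalax* fibrosarcomas it was the member with the least change, with 10.8 (Sp2230) and 20.5 (Sp2240) at the UIS, 5.99 (Sp2230) and 26.0 (Sp2240) at the IS and a log2 fold change of -0.21 ± 0.72 (SE). The 2 animals moved in opposite directions, and the sign turned to 1.34 with scaling to the totals, to 0.76 without the IS library of Sp2230 and to 0.22 without the UIS library of Sp2240. In mice miR-431-5p had 339 (unnumbered), 139 (M1023) and 61.5 (M512) at the UIS and 1476 (M1019), 2349 (M1023) and 877 (M512) at the IS, a log2 fold change of 3.33 ± 0.69 (SE) without overlap.

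For miR-433-3p the *Spalax* conditions had the reverse order of calls. In granuloma-bearing animals it had 28.3 (Sp600) and 28.0 (Sp976) normalized counts at the UIS and 170 (Sp600) and 35.5 (Sp976) at the IS, so the granulomas differed far more from each other than the muscles did, and the log2 fold change of 1.44 ± 0.81 (SE) was not called. In fibrosarcoma-bearing animals it had 28.9 (Sp2230) and 12.9 (Sp2240) at the UIS and 2.72 (Sp2230) and 2.17 (Sp2240) at the IS. The log2 fold change of -2.57 ± 0.81 (SE) was called. These IS values are 5 (Sp2230) and 1 (Sp2240) reads, so the size of the fold depends on the added 1. The mouse values of miR-433-3p were 126 (unnumbered), 63.1 (M1023) and 46.1 (M512) at the UIS and 298 (M1019), 611 (M1023) and 223 (M512) at the IS, a called log2 fold change of 2.25 ± 0.57 (SE). The rarer miR-433-5p, with 3 reads or fewer in every mouse UIS library, was at least 12.1-fold higher in mouse tumors against that floor.

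The levels of miR-434-3p differed widely between the species. In *Spalax* it was the sole tested member below the muscle in granulomas, with 29.8 (Sp600) and 7.62 (Sp976) normalized counts at the UIS against 6.24 (Sp600) and 1.27 (Sp976) at the IS, a log2 fold change of -2.01 ± 0.91 (SE) that was not called. The fibrosarcoma-bearing animals had 15.6 (Sp2230) and 6.46 (Sp2240) at the UIS and 2.72 (Sp2230) and 2.17 (Sp2240) at the IS. In mice the counts were 3418 (unnumbered), 2823 (M1023) and 3113 (M512) at the UIS and 9578 (M1019), 26129 (M1023) and 8499 (M512) at the IS. There it was among the most abundant members, and all mouse tumors lay above the UIS libraries, with a log2 fold change of 2.05 ± 0.47 (SE).

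At the Meg3 end, miR-673 leads in both species with its 5p arm. The normalized counts of miR-673-5p were 52.4 (Sp600) and 205.8 (Sp976) at the granuloma UIS and 520 (Sp600) and 126.7 (Sp976) at the IS, so the sides overlapped and the animals moved in opposite directions. In *Spalax* fibrosarcomas they were 69.8 (Sp2230) and 44.1 (Sp2240) at the UIS and 5.44 (Sp2230) and 13.0 (Sp2240) at the IS, without overlap. The log2 fold changes of miR-673-5p, 1.30 ± 0.91 (SE) and -2.57 ± 0.91 (SE), were not called, and its other arm, miR-673-3p, was called lower in *Spalax* fibrosarcomas at -2.92 ± 0.75 (SE), on 13.2 (Sp2230) and 11.8 (Sp2240) normalized counts at the UIS and 2.18 (Sp2230) and 0 (Sp2240) at the IS. In mice miR-673-5p had 148 (unnumbered), 76.9 (M1023) and 48.0 (M512) at the UIS and 616 (M1019), 1140 (M1023) and 421 (M512) at the IS, a log2 fold change of 3.01 ± 0.57 (SE).

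For miR-493-5p, both granulomas lay above and both *Spalax* fibrosarcomas below their muscle on the deposited scale. Its normalized counts in granuloma-bearing animals were 198 (Sp600) and 456 (Sp976) at the UIS and 1772 (Sp600) and 608 (Sp976) at the IS, and those in fibrosarcoma-bearing animals 176 (Sp2230) and 121 (Sp2240) at the UIS and 10.9 (Sp2230) and 71.6 (Sp2240) at the IS. The sides did not overlap in either condition, though neither log2 fold change, 1.78 ± 0.94 (SE) or -2.32 ± 0.94 (SE), was called. In mice miR-493-5p was a minor member, with 31.2 (unnumbered), 6.86 (M1023) and 17.3 (M512) at the UIS and 48.6 (M1019), 83.1 (M1023) and 77.8 (M512) at the IS, a called log2 fold change of 2.05 ± 0.61 (SE).

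For miR-337, whose leading arm differs between the species, the 3p arm in granuloma-bearing animals had 25.5 (Sp600) and 34.3 (Sp976) at the UIS and 447 (Sp600) and 214 (Sp976) at the IS, a called log2 fold change of 3.34 ± 0.84 (SE). It was the sole arm of the Meg3 end called in granulomas. The fibrosarcoma-bearing animals had 8.43 (Sp2230) and 20.5 (Sp2240) of miR-337-3p at the UIS and 1.63 (Sp2230) and 10.8 (Sp2240) at the IS, which overlap. Its log2 fold change there, -1.35 ± 0.84 (SE), was not called and turned to 0.0913 with scaling to the totals. In mice miR-337-3p had 23.1 (unnumbered), 9.61 (M1023) and 5.77 (M512) at the UIS and 96.5 (M1019), 147 (M1023) and 31.1 (M512) at the IS, without overlap. Its 5p arm, leading in mice, had 247 (unnumbered), 129 (M1023) and 65.3 (M512) at the mouse UIS and 677 (M1019), 1367 (M1023) and 148 (M512) at the IS, where the lowest tumor lay below the highest UIS library. In *Spalax* miR-337-5p had 4.25 (Sp600) and 16.5 (Sp976) at the granuloma UIS, 42.4 (Sp600) and 24.1 (Sp976) at the IS, and at most 2.41 in any library of the fibrosarcoma-bearing animals.

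In the Rian group, miR-370-3p spread widest between the conditions. Granuloma-bearing animals had 34.0 (Sp600) and 15.2 (Sp976) normalized counts at the UIS and 464 (Sp600) and 135.5 (Sp976) at the IS, a log2 fold change of 3.40 ± 0.75 (SE). In fibrosarcoma-bearing *Spalax* the counts were 21.7 (Sp2230) and 33.4 (Sp2240) at the UIS and 2.18 (Sp2230) and 4.34 (Sp2240) at the IS. The log2 fold change was -2.76 ± 0.75 (SE). These IS values are 4 (Sp2230) and 2 (Sp2240) reads, so the size of the fold depends on the added 1. The UIS libraries of both conditions thus overlapped while the growths lay far apart. In mice miR-370-3p had 39.4 (unnumbered), 8.24 (M1023) and 0 (M512) at the UIS and 269 (M1019), 324 (M1023) and 130 (M512) at the IS, and its log2 fold change was 4.97 ± 1.27 (SE). Without the UIS library of M512, which had 0 reads of it, the value was 3.55. The rarer 5p arm of miR-370 stayed at 3 reads or fewer in both UIS libraries of the granuloma-bearing animals and in all mouse UIS libraries, and against a floor of 3 reads per library it was at least 8.39-fold higher in granulomas and at least 3.83-fold higher in mouse tumors.

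The neighbouring miR-341-3p was called higher in granulomas and in mice, with 325 (Sp600) and 480 (Sp976) normalized counts at the granuloma UIS, 4471 (Sp600) and 1338 (Sp976) at the IS and a called log2 fold change of 2.63 ± 0.72 (SE). In fibrosarcoma-bearing *Spalax* it had 217 (Sp2230) and 290 (Sp2240) at the UIS and 69.7 (Sp2230) and 191 (Sp2240) at the IS, without overlap but with a log2 fold change of -1.11 ± 0.72 (SE) that was not called and that turned to 0.57 with scaling to the totals. In mice miR-341-3p had 278 (unnumbered), 81.0 (M1023) and 57.7 (M512) at the UIS and 1401 (M1019), 2235 (M1023) and 858 (M512) at the IS, a called log2 fold change of 3.66 ± 0.67 (SE).

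**Figure D3:**
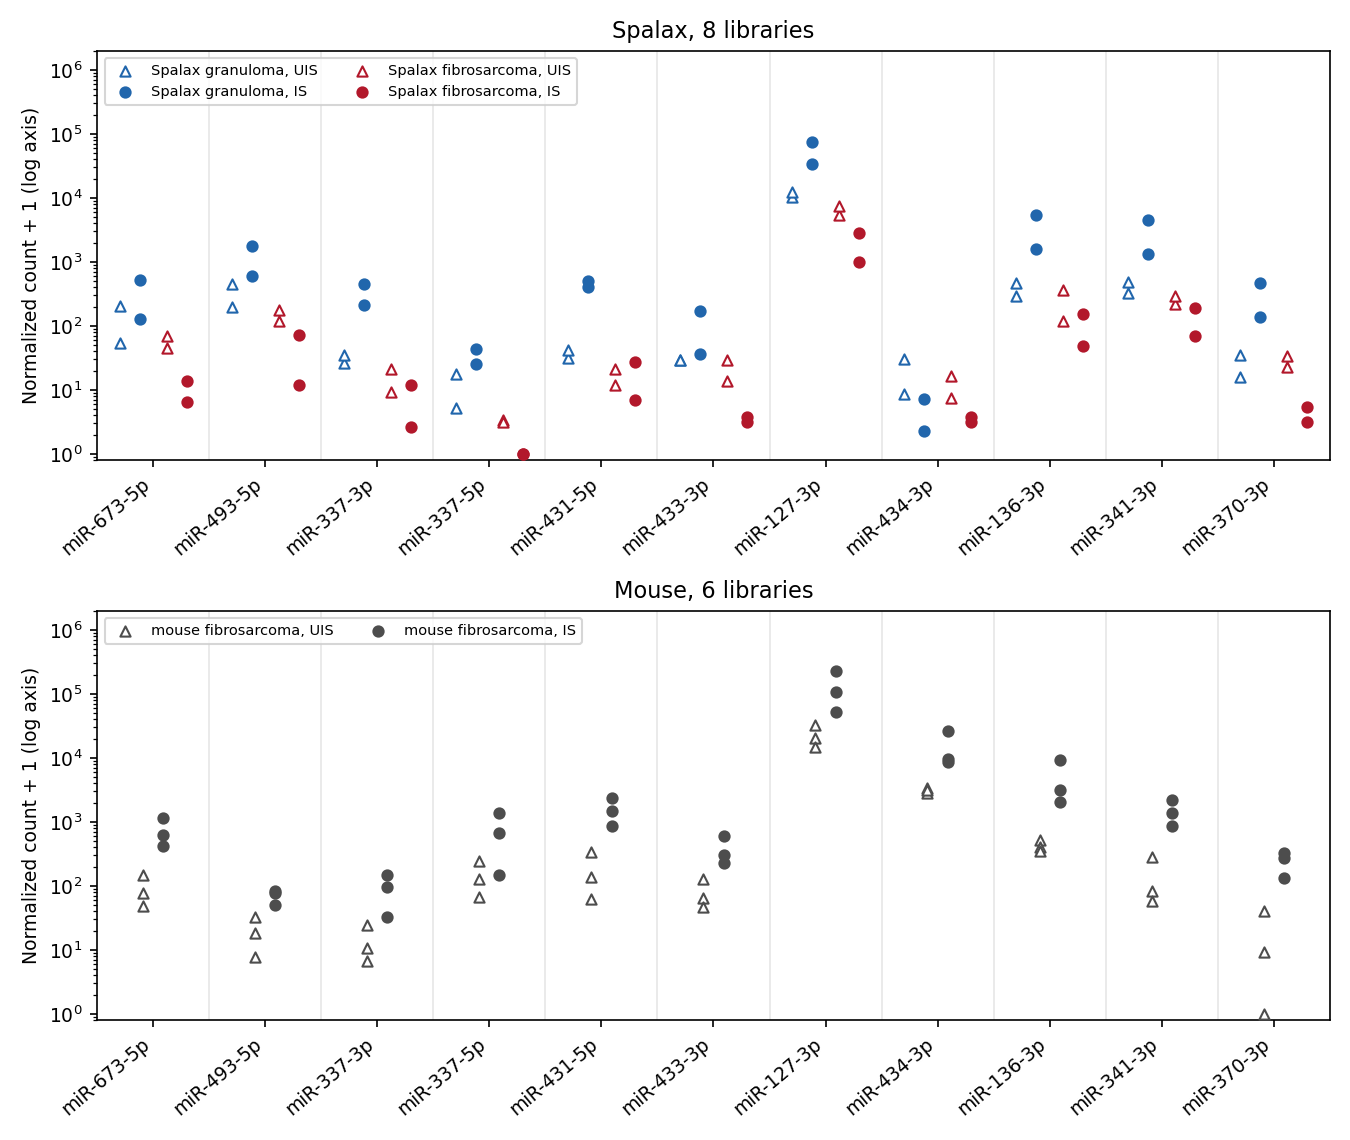
Normalized count + 1 (vertical log axis) of the leading arm of each hairpin tested in both species, in chromosomal order, for every *Spalax* library (top) and every mouse library (bottom). Open triangles are the uninjected side and filled circles the injected side. The tables were scaled separately, so levels compare within a panel: on this scale most granuloma points (blue) stand above and the *Spalax* fibrosarcoma points (red) below or among their uninjected sides, and miR-434-3p is below in both.

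Where they had enough reads, the remaining arms followed their hairpins. In every hairpin with both arms tested, 8 in *Spalax* and 10 in mice, the arms had log2 fold changes of the same sign at the IS. In *Spalax* fibrosarcomas the signs cannot be compared for miR-337, miR-341, miR-370 and miR-433. Their 5p arms had 3 reads or fewer in every library of both sides there and give no fold. In granulomas the arms called beside the leading ones were miR-127-5p, miR-341-5p, miR-370-5p, miR-431-3p and miR-433-5p, with log2 fold changes from 2.45 to 3.79. Apart from miR-127-5p, these arms passed the filter only through the granulomas. In mice miR-540-3p and miR-665-3p, arms that were not tested in *Spalax*, had log2 fold changes of 3.61 ± 0.85 (SE) and 3.80 ± 0.83 (SE). Neither table had enough reads to test 7 members, namely both arms of miR-770, miR-1188 and miR-3070 and the 5p arm of miR-665. Of these, miR-770-3p reached the highest normalized count, 15.9 in the tumor of mouse M1023, and no library had more than 42 reads of it.

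The muscle of animals with different growths was compared directly. The UIS values are part of the changes on which the cluster was chosen, so this comparison is not independent of that choice. Between the UIS of fibrosarcoma-bearing and of granuloma-bearing *Spalax*, limma called 0 of the 18 members and 0 of the 447 microRNAs, a share of 0%. At an unadjusted p under 0.05 there were 5 of the 447 and 0 of the 18, and edgeR with TMM factors and DESeq2 likewise called 0, with 7 and 10 microRNAs at an unadjusted p under 0.05. Point estimates were lower in the fibrosarcoma-bearing animals for 16 of the 18 members, with a median log2 fold change of -0.90 against -0.07 over all 447. They ran from -1.55 for miR-337-5p to 0.23 for miR-370-3p, with standard errors of 0.59 to 0.94, so that differences of this size were not detectable with 2 libraries a condition.

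The balance of the arms within a hairpin does not depend on a library's size factor and was not used to choose the members. It was expressed as log2 of 5p over 3p reads, with 0.5 added to each, and compared between the sides of an animal by exact sign flips, two-sided, where both libraries had at least 20 reads on the hairpin. The 8 hairpins with at least 4 such animals were tested, and 0 passed after adjustment, with a lowest adjusted p of 0.200 in the exact permutation test. For miR-127 the 5p arm gained at the IS in 6 of 6 animals, by 0.47 ± 0.43 (SD, n = 6). The exact permutation p was 0.0312, the smallest that 6 animals allow. The gains ran from 0.02 (Sp976) to 1.11 (Sp600). Those of the fibrosarcoma-bearing *Spalax* rest on 8 (Sp2230) and 7 (Sp2240) reads of the 5p arm at the IS. miR-136 shifted the other way, with less 5p at the IS in 5 of 6 animals, by -0.70 ± 0.67 (SD, n = 6) at an exact permutation p of 0.0938. With 4 animals each, which cannot go below an exact p of 0.125, miR-337 had less 5p in 4 of 4 animals, by -1.15 ± 0.69 (SD, n = 4), and miR-431 and miR-433 had more in 4 of 4. These 4 animals were the granuloma-bearing *Spalax* and the paired mice, since both fibrosarcoma-bearing *Spalax* had too few reads at the IS for these hairpins. The remaining hairpins, miR-673, miR-493 and miR-341, had exact permutation p-values of 0.625 to 1, and for miR-493 the *Spalax* ratio is set by the added 0.5, since its 3p arm had 0 reads in every *Spalax* library.

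By library, the 5p share of miR-136 was lower in granulomas and mouse tumors than in their muscle. The 5p arm had 36.3% (Sp600) and 35.2% (Sp976) of the hairpin's reads at the granuloma UIS and 17.7% (Sp600) and 24.4% (Sp976) at the IS. In fibrosarcoma-bearing *Spalax* it had 33.6% (Sp2230) and 33.7% (Sp2240) at the UIS and 37.1% (Sp2230) and 33.3% (Sp2240) at the IS. The granulomas thus lay below all *Spalax* muscle, and the *Spalax* fibrosarcomas beside it. In mice the 5p share of miR-136 was 41.6% (unnumbered), 45.9% (M1023) and 45.1% (M512) at the UIS and 22.1% (M1019), 29.1% (M1023) and 26.1% (M512) at the IS. The 5p share of miR-434 in mice went the other way, from 13.7% (unnumbered), 11.2% (M1023) and 8.94% (M512) at the UIS to 27.3% (M1019), 29.1% (M1023) and 21.7% (M512) at the IS. The sides did not overlap for either hairpin in mice. Nor did they for miR-540, whose 5p share in mice was 5.43% (unnumbered), 19.6% (M1023) and 34.2% (M512) at the UIS. At the IS it was 4.11% (M1019), 4.62% (M1023) and 4.44% (M512). These UIS shares rest on 10 (unnumbered), 9 (M1023) and 13 (M512) reads of the 5p arm. Only 2 mice could be paired, so miR-434 and miR-540 were not tested.

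The counted reads of the arms also differed by species. The 5p arm of miR-337 took 8.67% to 32.5% of the hairpin's reads in the 5 *Spalax* libraries with at least 20 reads and 82.6% to 93.1% in the 6 mouse libraries, so the species did not overlap and the leading arm was the opposite one. For miR-493 all 2710 *Spalax* reads were on the 5p arm, while mice had 356 on 5p and 152 on 3p. The other hairpins with both species at this depth had overlapping or neighbouring ranges, for example 82.6% to 95.8% in *Spalax* and 91.4% to 96.9% in mice for miR-431. These species values were not tested. *Spalax* reads were counted under mouse names, so a different arm use and a diverged arm sequence cannot be told apart.

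**Figure D4:**
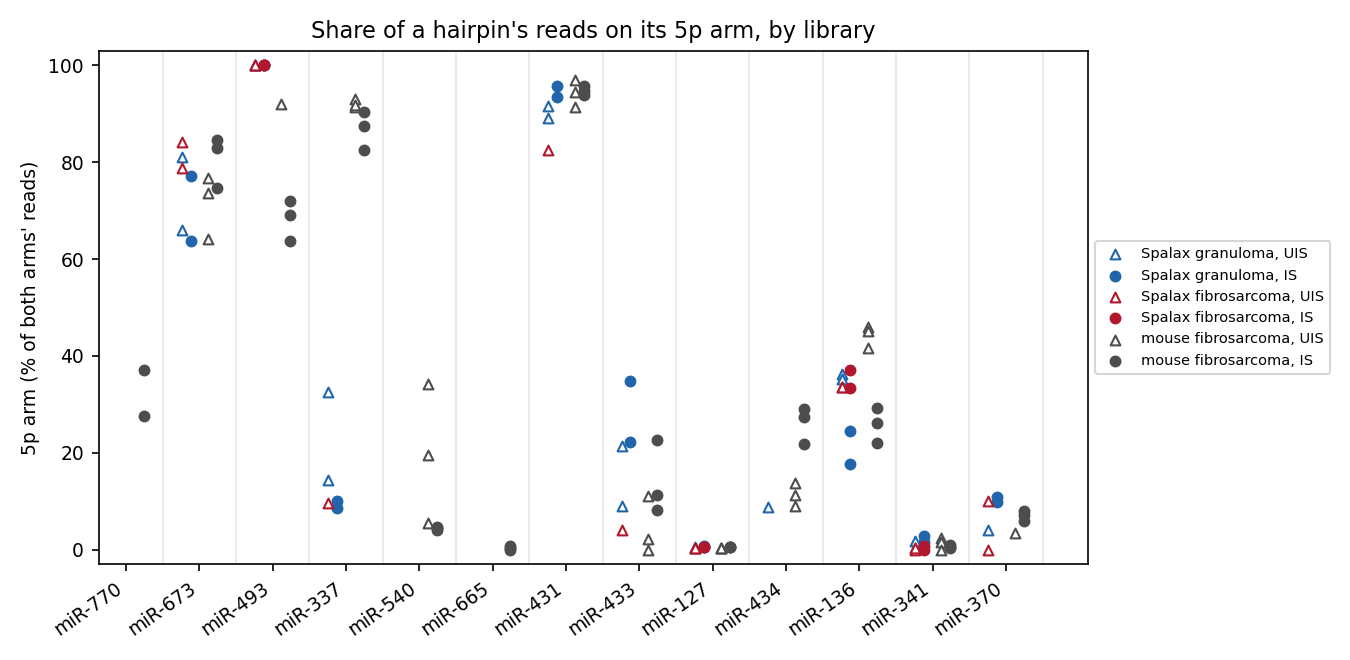
Share of a hairpin's reads on its 5p arm (vertical axis, percent), for every library with at least 20 reads on the hairpin, with *Spalax* on the left and mouse on the right of each position. Circles are the injected side and triangles the uninjected side. miR-337 stands at 8.67% to 32.5% in *Spalax* and 82.6% to 93.1% in mice, and miR-136 is lower at the injected side in granulomas and mice.

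The *Spalax* table holds 5 of the mouse libraries on its own scale, which allows levels to be set side by side. On it, miR-434-3p lay between 1.27 and 29.8 normalized counts in all *Spalax* libraries and between 7569 and 21730 in the mouse tumors. miR-540-3p had at most 2.83 in *Spalax* and 383 to 2048 in the mouse tumors, and miR-665-3p at most 16.2 and 76.2 to 155. In the other direction, miR-493-5p had 1772 (Sp600) and 608 (Sp976) in the granulomas and 40.9 to 69.3 in the mouse tumors. The *Spalax* fibrosarcomas, at 10.9 (Sp2230) and 71.6 (Sp2240), lay on either side of that mouse range. For miR-127-3p the granulomas, at 75285 (Sp600) and 33693 (Sp976), overlapped the mouse tumors, at 46636 to 187530. The *Spalax* fibrosarcomas, at 995 (Sp2230) and 2801 (Sp2240), lay below every mouse tumor. *Spalax* reads were counted on mouse microRNA names, so a low level and a diverged sequence cannot be told apart for these arms.

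The distal cluster of the same domain, miR-379 to miR-410, listed with earlier results known, was counted in the same way. Of its 74 names, 44 were tested in *Spalax* and 49 in mice. In granulomas 34 of the 44 were called higher, in *Spalax* fibrosarcomas 11 were called lower, and in mice 45 of the 49 were called higher, beside the 25.5%, 22.1% and 32.2% of all microRNAs given above. In *Spalax* fibrosarcomas the shares called lower, 11 of 44 distal and 4 of 18 proximal members, were near that of all microRNAs, and scaling to the totals left 1 and 0. The distal medians, 2.95, -1.36 and 3.12, lay near the 2.45, -1.34 and 3.00 of the proximal members, and the *Spalax* fibrosarcoma median of the distal list moved to -0.05 with scaling to the totals. Between the UIS of the *Spalax* conditions 0 of the 44 were called.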

How the data were processed

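Small RNA of 14 libraries, from the IS and UIS of 4 *Spalax* and 3 mice, was analysed. The authors built TruSeq small RNA libraries, trimmed adaptors and counted reads with mirDeep, and deposited a signal per mouse microRNA name, namely reads divided by DESeq2-type size factors; 100% of values were whole multiples of 1 read (tolerance 0.1). The build and settings of this counting are not given in the sources used here. Each sample's group came from its labels. IS and UIS libraries pair by the animal number of the labels. Within-animal correlations of the deviations from the group means were -0.11 (M1023) and 0.12 (M512) in mice. In *Spalax* they were 0.00 in fibrosarcoma-bearing and 0.09 in granuloma-bearing animals. With 2 libraries a group, both animals of a condition must give the same value, so these cannot show how well each animal's sides pair. Replicate libraries differed by far more than sampling noise (chi-square per degree of freedom at least 327), and p-values measure the spread between these animals.

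Since the files hold normalized values, limma 3.58.1 (R 4.3.3; trend) was fitted on log2(value + 1) across all microRNAs reaching 10 in 2 or more *Spalax* libraries, or in 3 or more mouse libraries, with Benjamini-Hochberg adjustment and a threshold of 0.05; the 8 *Spalax* libraries shared a fit. Members and lists were chosen with earlier results of these data known. Full values are given for the leading arm of each hairpin tested in both species. Alternatives were total scaling, size factors without muscle microRNAs, other pseudocounts, no filter, limma without trend, edgeR 4.0.16 with TMM, DESeq2 1.42.0, the replicate block and leaving out each library. Tests were checked on simulated data. Hairpins were folded with RNAfold 2.7.2. Each library's lower limit was 3 reads.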

Additional observations from a re-analysis of the deposited data

Results flagged for a closer look

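Several leading arms moved one way at the IS in both animals of one condition and the opposite way in both animals of another. Each value is the difference between the conditions' mean log2 ratios of IS over UIS. The arms listed were picked by this pattern. Its share over all microRNAs was not counted, so the numbers of arms below are a description only. Granuloma-bearing minus fibrosarcoma-bearing *Spalax*, with both granulomas above and both fibrosarcomas below their UIS on the deposited scale, it was 4.10 for miR-493-5p, 4.69 for miR-337-3p, 4.01 for miR-433-3p, 4.11 for miR-127-3p, 4.24 for miR-136-3p, 3.74 for miR-341-3p and 6.16 for miR-370-3p, which makes 7 of the 11 leading arms. The choice of the cluster rested on the same changes. As a contrast in limma over all microRNAs, the difference was called for miR-127-3p and miR-370-3p. It was called for 0 members with a pseudocount of 0.1 or no filter, and the calls were also lost in most fits with a library left out. DESeq2 called it for 12 members and for 61 of the 447 microRNAs. With reads over library totals, both fibrosarcomas stayed below their UIS for 2 of the 7, miR-433-3p and miR-370-3p. Both of these arms had 5 reads or fewer in each *Spalax* fibrosarcoma, so their values also depend on the added 1. Of the other leading arms, miR-673-5p was below its UIS in granuloma Sp976, miR-431-5p was above its UIS in fibrosarcoma Sp2240, miR-434-3p was below in both granulomas, and miR-337-5p had 3 reads or fewer on both sides in fibrosarcoma-bearing animals and gives no fold.

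For the 2 paired mice minus the fibrosarcoma-bearing *Spalax*, in tables scaled separately, the difference was not tested. It was 6.06 for miR-673-5p, 5.08 for miR-493-5p, 4.37 for miR-337-3p, 5.32 for miR-433-3p, 4.58 for miR-127-3p, 4.03 for miR-434-3p, 4.79 for miR-136-3p, 5.43 for miR-341-3p and 8.85 for miR-370-3p, 9 of the 11 arms. The value of miR-370-3p includes mouse M512, with 0 reads at the UIS, and so depends on the added 1. With reads over library totals, both *Spalax* fibrosarcomas stayed below their UIS for 3 of the 9, miR-673-5p, miR-433-3p and miR-370-3p. Of these, miR-433-3p and miR-370-3p had 5 reads or fewer in each *Spalax* fibrosarcoma.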

How the results depend on the processing

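The counts of members called in granulomas (11), *Spalax* fibrosarcomas (4) and mice (20) were 10, 4 and 20 in the paired fit with the animal as a block, and the block left the UIS comparison, which it cannot estimate, aside. Scaling to library totals gave 17 in granulomas and 0 in *Spalax* fibrosarcomas, and turned the sign in *Spalax* fibrosarcomas of miR-337-3p (0.0913), miR-431-5p (1.34), miR-136-3p (0.42) and miR-341-3p (0.57). A pseudocount of 0.1 gave 7 calls in granulomas, a pseudocount of 10 gave 1 in *Spalax* fibrosarcomas and no filter gave 2. Calls over all microRNAs, in either direction, moved as well under the alternatives other than leaving out a library. They ran from 201 to 303 in granulomas (216 in the main fit) and from 151 to 234 in *Spalax* fibrosarcomas (167). In mice they ran from 227 to 404 (316). Leaving out each library gave 1 to 12 calls in granulomas, 0 to 5 in *Spalax* fibrosarcomas and 16 to 21 in mice, and miR-431-5p then ranged from -1.19 to 0.76 in *Spalax* fibrosarcomas. The cause was not tested, apart from the scaling, which lifts all IS values against the UIS, and the smaller fits. The UIS comparison gave 0 calls under all its alternatives, and the arm balance 0 hairpins. Without muscle microRNAs in the total, 4 instead of 5 of the 6 paired animals had a higher share at the IS. With 2 *Spalax* libraries a condition, members under about 10 normalized counts could not be judged.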
